A study of Mus musculus with 16 samples.

Results

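The enzymes and carriers of glycolysis and gluconeogenesis were followed across 16 mouse kidney libraries. The members were 37 genes listed as enzymes, transporters and regulators of both pathways and matched by gene symbol, out of 52338 genes in the count table, and all 37 passed the filter on low counts. The animals were C57BL6 mice on a high-fat diet, and kidneys were taken at day 15. They fell into 4 groups of 4 libraries each: FAN with time-restricted feeding, FAN with ad libitum feeding, vehicle with time-restricted feeding and vehicle with ad libitum feeding. All groups, the vehicle groups included, were on the high-fat diet, and the age and sex of the animals are not stated in the labels. FAN is not written out in the labels, and the names of the table columns hold the word folic.

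Glycolysis splits glucose into pyruvate in the cytosol and yields ATP without oxygen, and lactate dehydrogenase passes pyruvate on to lactate. Gluconeogenesis runs the other way, from lactate, glutamine and glycerol to glucose, and replaces the irreversible steps of glycolysis by its own enzymes. In the kidney the proximal tubule makes glucose and burns mainly fatty acids, whereas the distal nephron, and recruited immune cells, rely more on glycolysis. The proximal tubule also takes up and breaks down fructose through ketohexokinase.

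Total counts ran from 12450812 to 33976660 per library, so that 0 counts allowed at most 0.0615 to 0.279 CPM on the scale of the levels (3 counts per library, counting error only). Levels are given as CPM, the usual count scaled to library size, with TMM factors applied. FAN libraries are numbered by their columns, time-restricted 6, 10, 11 and 12 and ad libitum 6, 7, 10 and 12. Vehicle libraries are numbered 1 to 4. Values per library follow this order. The share of counts on mitochondrial genome transcripts ran from 21.4% to 26.7% in FAN time-restricted, 6.94% to 14.8% in FAN ad libitum, 18.03% to 20.9% in vehicle time-restricted and 17.2% to 22.8% in vehicle ad libitum libraries. Within FAN ad libitum, libraries 6 and 7 carried S numbers of the earliest run (column names end in S numbers, which fall into 3 runs and are not explained) and mitochondrial shares of 7.29% and 6.94%. Their levels of several members stood apart from those of libraries 10 and 12. Of the 3 runs, the middle one held only vehicle and the late one only FAN libraries, so that FAN and vehicle share only the earliest run. The summed level of 10 proximal tubule markers, such as the megalin gene Lrp2, was 5512 to 7070.4 CPM in FAN time-restricted, 1346 to 3374 CPM in FAN ad libitum, 10831 to 14428 CPM in vehicle time-restricted and 10975 to 12566 CPM in vehicle ad libitum libraries. Of these markers 8 fell and 2 did not pass after FAN under ad libitum feeding, and 8 rose and 2 did not pass with time-restricted feeding in FAN. The sum of 6 macrophage markers was 261 to 454, 600.1 to 685, 64.7 to 93.6 and 89.4 to 134 CPM in the same order of groups, and all 6 rose after FAN under ad libitum feeding. No marker of either list was at 0. After FAN under ad libitum feeding, where 60.7% of all genes passed, 4 of 4 intercalated cell and 1 of 3 principal cell markers fell. Of the distal convoluted tubule markers 1 of 3 rose, and of the thick ascending limb markers 0 of 4 passed. The other markers of these lists did not pass, and the part of these segments in the member levels was not tested. In these bulk samples, fewer cells of a type and less RNA per cell cannot be told apart.

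The proximal regions of 4 members show how the promoters on either side of the pattern read. Khk and Mdh1 were lower after FAN and higher with time-restricted feeding, and Hk2 and Slc16a3 were higher after FAN. Each line gives 200 bases that end just before the RefSeq start site on GRCm38.p6, 5′ to 3′ along the gene. Capitals mark ACGTG, the core of hypoxia response elements and E-boxes, and GTTAAT, a part of the motif of the tubule factor HNF1, on either strand. The 4 genes were chosen after their values were seen.
Khk (chr5:30921359-30921558, plus strand): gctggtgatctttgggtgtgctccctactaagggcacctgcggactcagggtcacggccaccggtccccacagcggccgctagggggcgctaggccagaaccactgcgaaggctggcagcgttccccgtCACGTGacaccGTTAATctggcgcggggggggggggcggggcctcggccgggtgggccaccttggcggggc
Mdh1 (chr11:21571935-21572134, minus strand): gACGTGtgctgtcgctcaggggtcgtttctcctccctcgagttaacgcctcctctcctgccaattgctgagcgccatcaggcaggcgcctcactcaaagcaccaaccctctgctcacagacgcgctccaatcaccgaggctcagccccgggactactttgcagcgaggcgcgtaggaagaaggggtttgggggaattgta
Hk2 (chr6:82774455-82774654, minus strand): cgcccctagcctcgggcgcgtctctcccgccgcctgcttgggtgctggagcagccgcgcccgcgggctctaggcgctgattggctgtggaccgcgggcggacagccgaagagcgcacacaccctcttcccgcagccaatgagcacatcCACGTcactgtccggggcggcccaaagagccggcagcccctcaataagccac
Slc16a3 (chr11:120948867-120949066, plus strand): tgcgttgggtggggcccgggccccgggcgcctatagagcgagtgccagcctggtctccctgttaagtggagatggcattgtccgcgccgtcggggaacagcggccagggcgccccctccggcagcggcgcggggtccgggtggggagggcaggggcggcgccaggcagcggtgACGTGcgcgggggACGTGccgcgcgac
In Khk a palindromic CACGTG, which counts as 2 overlapping matches, stands beside GTTAAT. The other motifs searched, GCGTG and CAAAGTCCA, are not in these 4 stretches. In the windows of 250 bases before to 50 after each start, ACGTG on either strand occurred in 25 of 56 member promoters (44.6%), which belong to 36 member genes, and in 19.6% of all 32851 promoters. GCGTG, a variant of the hypoxia core, occurred in 24 of 56 (42.9%) and in 32.4% of all. GTTAAT occurred in 3 of 56 (5.36%) and in 7.10% of all, and TATAAA in 4 of 56 (7.14%) and in 13.6% of all. The HNF4 motif CAAAGTCCA occurred in 0 of 56 and in 0.475% of all. Windows of a gene can overlap and share a match, as in Aldoa, and 21 of the 36 member genes held ACGTG in any window. Base composition was not compared between member and other promoters. The matches are letters in a window and carry no statement on binding. ACGTG was found in promoters of members that fell, such as Khk and Mdh1, and of members that rose, such as Hk2 and Slc16a3.

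Under ad libitum feeding and relative to the bulk of genes, a larger share of the members than of all genes was lower after FAN, and a smaller share was higher. In edgeR's quasi-likelihood test over all 17731 genes, 20 of 37 members fell, 8 rose and 9 did not pass at an adjusted p of 0.05, where 60.7% of all genes passed, 28.6% as lower and 32.1% as higher. The median log2 change was −0.70 over the members and 0.06 over all genes. Under time-restricted feeding FAN lowered 16 and raised 6 members, and 15 did not pass, where 43.5% of all genes passed, 19% as lower and 24.5% as higher. The median was −0.26 over the members and 0.05 over all genes. Each contrast has its own vehicle group. With the library size as scale, in place of TMM the median of all genes moved to 0.76 under ad libitum feeding, and 16 members rose and 10 fell. Log2 changes are relative to the bulk of genes, and those whose sign depended on this choice are named where they occur.

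**Figure D1:**
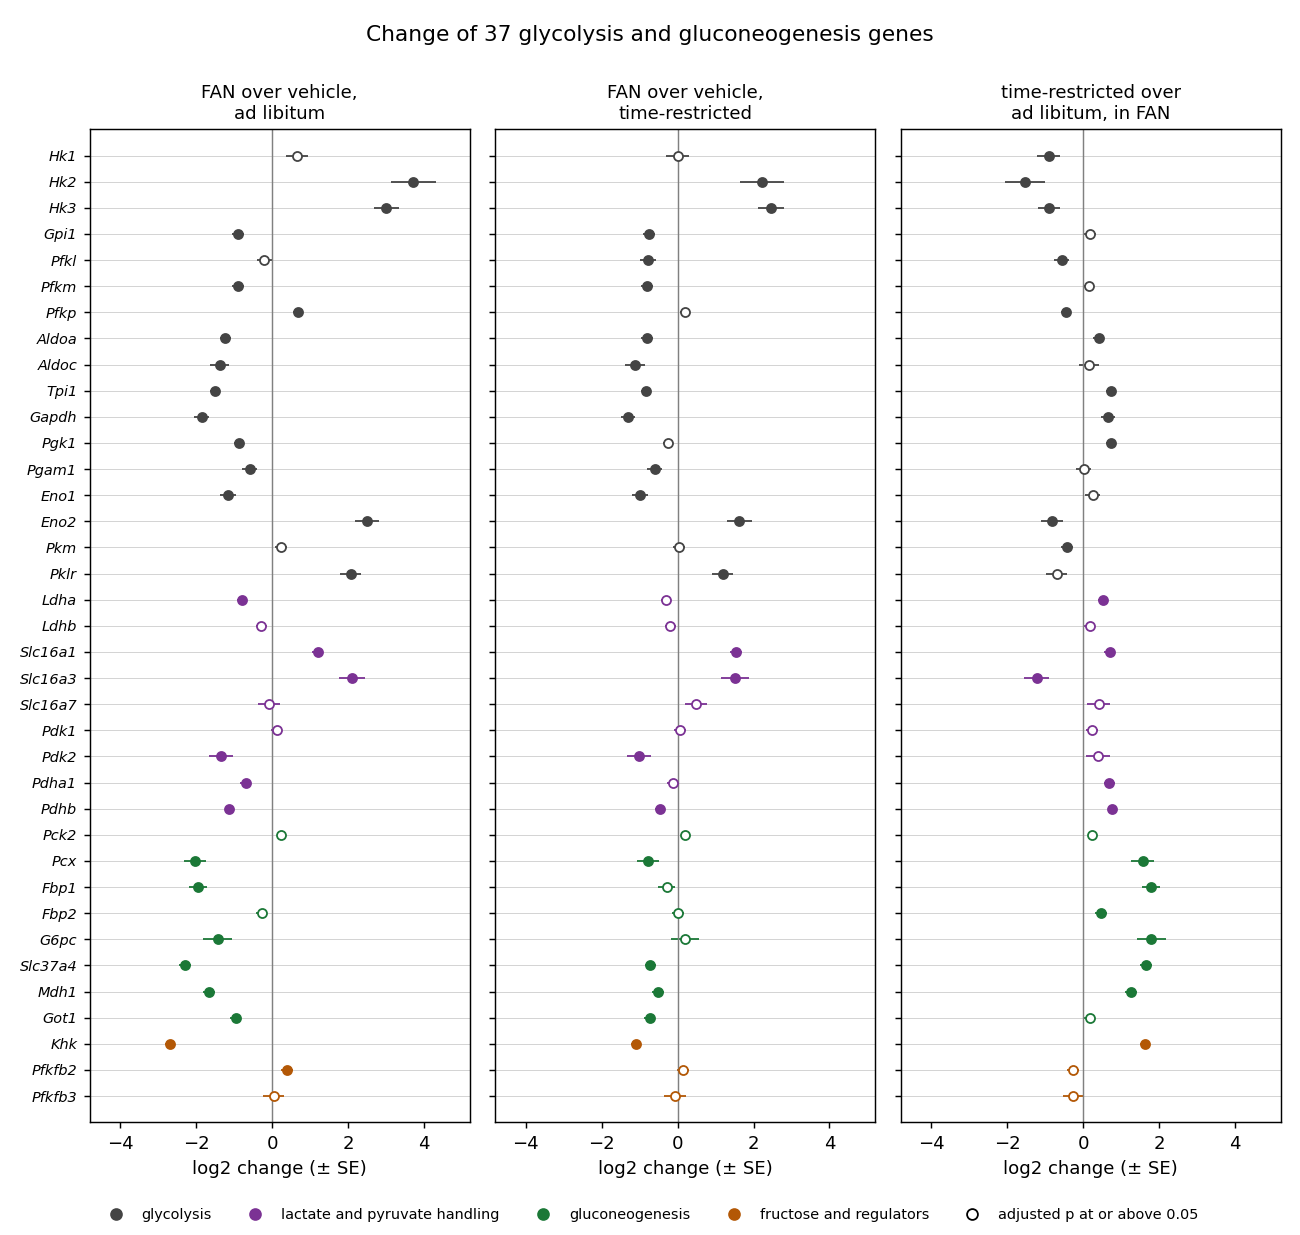
Log2 change (x axis, ± SE) of the 37 members (y axis, grouped by role) for FAN over vehicle under ad libitum and under time-restricted feeding and for time-restricted over ad libitum feeding in FAN. Filled points had an adjusted p under 0.05. Pcx, Fbp1, G6pc, Slc37a4, Mdh1 and Khk lie left of 0 in the first panel and right of 0 in the last, whereas Hk2, Hk3, Eno2 and Slc16a3 do the reverse.

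Under ad libitum feeding gluconeogenesis was the role with the lowest median change after FAN. There 6 of its 8 members fell and 2 did not pass (median −1.55), and under time-restricted feeding 4 fell and 4 did not pass (median −0.40, against −0.60 for glycolysis). Scaled by library size, 4 fell, 2 rose and 2 did not pass under ad libitum feeding (median −0.85). With the 3 runs of S numbers as a covariate, an alternative chosen after seeing the data, 1 fell and 7 did not pass under time-restricted feeding. Slc37a4 (ENSMUSG00000032114, chromosome 9, 44396852 to 44402968, on GRCm38 here and below) encodes the carrier that brings glucose 6-phosphate into the endoplasmic reticulum for the last step of glucose release. It measured 181, 184, 197 and 190.3 CPM in FAN time-restricted and 74.6, 65.3, 56.5 and 43.2 CPM in FAN ad libitum libraries. It measured 364, 247, 309.9 and 314 CPM in vehicle time-restricted and 332, 281, 277 and 292 CPM in vehicle ad libitum libraries. All FAN ad libitum values lay below all FAN time-restricted ones, and these below all vehicle ones. The log2 change after FAN was −2.30 ± 0.16 (SE; adjusted p = 1.24e-09, edgeR) under ad libitum and −0.71 ± 0.15 (adjusted p = 0.000896) under time-restricted feeding. With the covariate of 3 runs the time-restricted change was −0.54 (adjusted p = 0.0603).

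Fbp1 (ENSMUSG00000069805, chromosome 13, 62864753 to 62888282) encodes fructose-1,6-bisphosphatase, which opposes phosphofructokinase. It measured 528, 480.4, 439 and 636 CPM in FAN time-restricted and 215, 174, 135 and 78.3 CPM in FAN ad libitum libraries. It measured 697, 511, 640.2 and 679 CPM in vehicle time-restricted and 698, 583, 513 and 539 CPM in vehicle ad libitum libraries. The FAN ad libitum libraries stood alone at the low end, and FAN time-restricted libraries overlapped with vehicle. The log2 change after FAN was −1.95 ± 0.23 (adjusted p = 9.76e-07, edgeR) under ad libitum and −0.28 ± 0.22 (adjusted p = 0.334) under time-restricted feeding.

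Mdh1 (ENSMUSG00000020321, chromosome 11, 21556787 to 21572367) encodes cytosolic malate dehydrogenase, which returns malate carbon to oxaloacetate. It measured 1088, 1077, 1069.6 and 1120.2 CPM in FAN time-restricted and 427, 351, 614 and 436 CPM in FAN ad libitum libraries. It measured 1698, 1328, 1465 and 1736 CPM in vehicle time-restricted and 1476, 1373, 1389.7 and 1573 CPM in vehicle ad libitum libraries. The 4 FAN time-restricted values lay close together between the other FAN libraries and vehicle. The log2 change after FAN was −1.67 ± 0.16 (adjusted p = 6.37e-08, edgeR) under ad libitum and −0.52 ± 0.15 (adjusted p = 0.0116) under time-restricted feeding.

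Pcx encodes pyruvate carboxylase, the mitochondrial entry step of gluconeogenesis from pyruvate. It ranged over 265 to 414 CPM in FAN time-restricted, 49.9 to 187 in FAN ad libitum, 547 to 649 in vehicle time-restricted and 435 to 529 in vehicle ad libitum libraries. Both FAN groups lay below their vehicle group without overlap. Its log2 change was −2.03 (adjusted p = 1.26e-05, edgeR) under ad libitum and −0.78 (adjusted p = 0.0357) under time-restricted feeding. The time-restricted call was lost without FAN time-restricted 6 or 10 or vehicle time-restricted 1, 2 or 3 (adjusted p = 0.106, 0.0724, 0.0728, 0.0635 and 0.0619). It was also lost with library size scaling (0.0763), with no filter (0.124) and with S numbers as a covariate, at −0.66 (adjusted p = 0.0643, edgeR) for the early run and −0.24 (0.699) for 3 runs.

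G6pc encodes the catalytic subunit of glucose-6-phosphatase, which releases free glucose. It ranged over 453 to 562 CPM in FAN time-restricted, 66.4 to 270.4 in FAN ad libitum, 219 to 629.9 in vehicle time-restricted and 252 to 614 in vehicle ad libitum libraries. Vehicle libraries varied widely, and FAN ad libitum 6 lay above vehicle ad libitum 3. Its log2 change was −1.44 (adjusted p = 0.0037, edgeR) under ad libitum feeding, with adjusted p = 0.0927 under library size scaling and 0.136 in the earliest S numbers alone, and 0.19 (adjusted p = 0.704) under time-restricted feeding.

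Got1, the cytosolic aspartate aminotransferase gene, fell in both contrasts (−0.95 under ad libitum and −0.73 under time-restricted feeding). Under library size scaling its ad libitum change was −0.25 (adjusted p = 0.138, edgeR), and with 3 runs of S numbers as a covariate its time-restricted change was −0.42 (0.0885). Neither passed. Pck2, which encodes the mitochondrial phosphoenolpyruvate carboxykinase, measured 0.23 and 0.20 and did not pass. Fbp2, the isozyme known from muscle, measured −0.28 and 0.02 and did not pass. Scaled by library size, the ad libitum changes of Pck2 and Fbp2 were 0.93 and 0.42 and both passed as higher (adjusted p = 4.44e-06 and 0.0296, edgeR), so that the sign of Fbp2 turned. Without vehicle ad libitum 2, Pck2 passed (adjusted p = 0.043, edgeR).

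**Figure D2:**
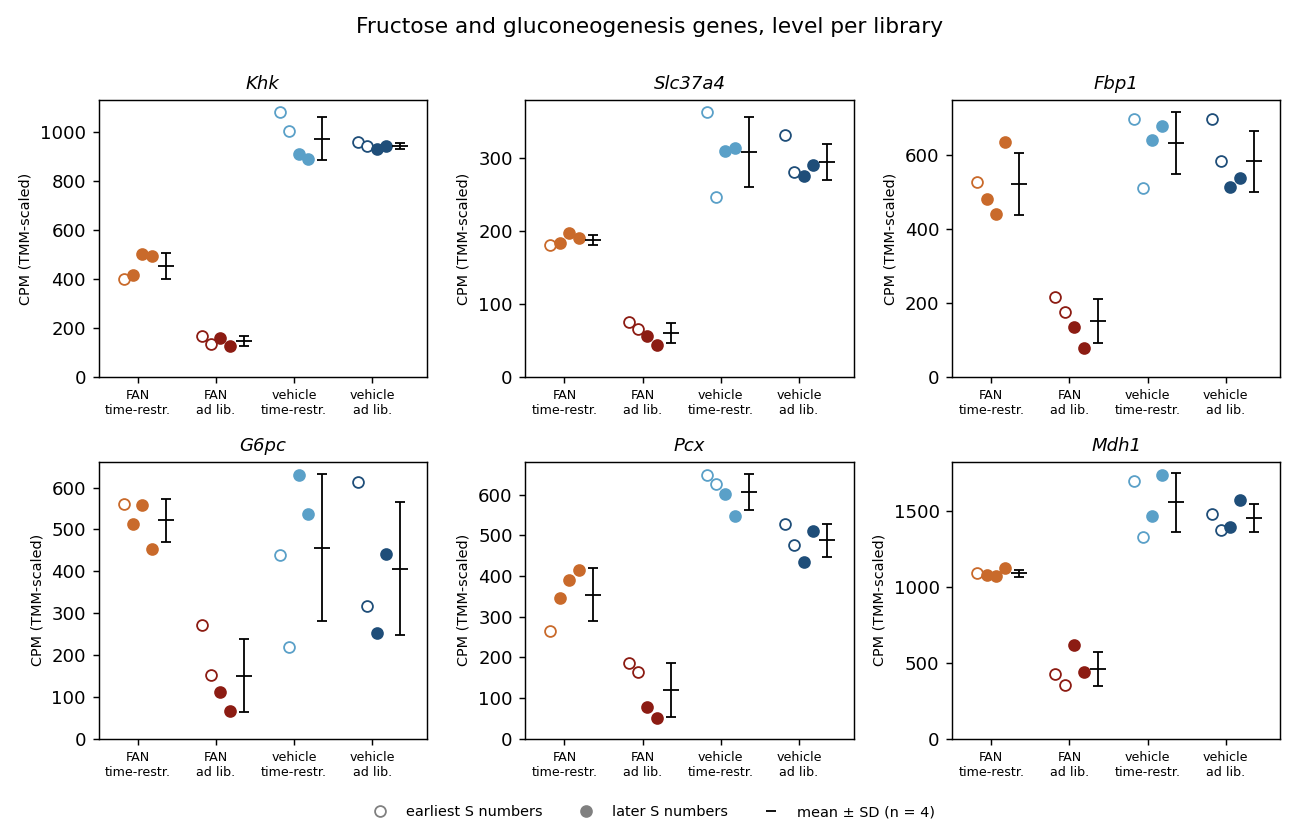
TMM-scaled CPM (y axis) of Khk and 5 gluconeogenic genes in each library by group, with mean ± SD of 4 libraries. Open points are the earliest S numbers of the column names. The FAN ad libitum libraries are the lowest group in each panel, and for G6pc they overlap with vehicle.

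Khk fell more than any other member after FAN under ad libitum feeding. Khk (ENSMUSG00000029162, chromosome 5, 30921431 to 30931248) encodes ketohexokinase, which phosphorylates fructose in the proximal tubule and liver. It measured 397, 414, 503 and 494 CPM in FAN time-restricted and 167, 132, 159 and 126 CPM in FAN ad libitum libraries. It measured 1081, 1005, 911 and 889.7 CPM in vehicle time-restricted and 958, 942, 928 and 941 CPM in vehicle ad libitum libraries. The 3 levels did not overlap, with vehicle highest and FAN ad libitum lowest. The log2 change after FAN was −2.69 ± 0.14 (adjusted p = 9.88e-11, edgeR) under ad libitum and −1.10 ± 0.13 (adjusted p = 3.17e-06) under time-restricted feeding. Earliest S numbers alone gave −2.70 under ad libitum feeding.

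With TMM scaling the regulators of phosphofructokinase moved little. Pfkfb2 encodes a bifunctional enzyme that sets fructose 2,6-bisphosphate, the main activator of phosphofructokinase. It measured 10.2, 9.54, 7.58 and 10.7 CPM in FAN time-restricted and 9.11, 10.6, 14.2 and 11.3 CPM in FAN ad libitum libraries. It measured 8.64, 9.22, 7.47 and 8.96 CPM in vehicle time-restricted and 8.80, 8.48, 9.64 and 7.63 CPM in vehicle ad libitum libraries. The groups overlapped. It rose by 0.38 under ad libitum feeding (adjusted p = 0.0393, edgeR), and the call was lost when FAN ad libitum 10, FAN ad libitum 12, vehicle ad libitum 1, 2 or 4 was omitted (adjusted p = 0.16, 0.0646, 0.0669, 0.0808 and 0.111). It was also lost with no filter, with voom weights, with the covariate of 3 runs and in the earliest S numbers alone (adjusted p = 0.0733, 0.143, 0.261 and 0.492). The opposite-strand gene Yod1 overlaps with Pfkfb2 and had counts equal to 95.1% of those of Pfkfb2. The strand setting of the counting is not given, so that both genes are uncertain. Pfkfb3 measured 0.05 and −0.07 after FAN and did not pass, whereas under library size scaling its ad libitum change of 0.76 did (adjusted p = 0.0315, edgeR).

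Genes of the common trunk of glycolysis fell relative to the bulk of genes. Of the 17 glycolytic members, 9 fell, 5 rose and 3 did not pass under ad libitum feeding, and 9 fell, 4 rose and 4 did not pass under time-restricted feeding. When library size was the scale, 4 fell, 8 rose and 5 did not pass under ad libitum feeding. With 3 runs of S numbers as a covariate, 3 fell, 4 rose and 10 did not pass under time-restricted feeding. Tpi1 (ENSMUSG00000023456, chromosome 6, 124810586 to 124814296) encodes triosephosphate isomerase. It measured 426, 463, 517 and 544 CPM in FAN time-restricted and 329.7, 304.8, 295 and 237 CPM in FAN ad libitum libraries. It measured 916, 810.1, 881 and 883 CPM in vehicle time-restricted and 793, 916, 813 and 814 CPM in vehicle ad libitum libraries. The order was as for Khk, without overlap between FAN ad libitum, FAN time-restricted and vehicle. On the log2 scale its change was −1.52 ± 0.13 (adjusted p = 1.81e-08, edgeR) and −0.84 ± 0.13 (adjusted p = 4.22e-05) under ad libitum and time-restricted feeding.

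Gapdh (ENSMUSG00000057666, chromosome 6, 125161715 to 125166467) encodes glyceraldehyde-3-phosphate dehydrogenase, a gene often taken as a constant standard. It measured 878, 1081, 1138 and 1101 CPM in FAN time-restricted and 906, 787, 490.2 and 484 CPM in FAN ad libitum libraries. It measured 2794, 2737, 2513 and 2387 CPM in vehicle time-restricted and 2234, 2284, 2397 and 2738 CPM in vehicle ad libitum libraries. No FAN library came near the vehicle range. The log2 change was −1.86 ± 0.19 (adjusted p = 1.7e-07, edgeR) under ad libitum and −1.31 ± 0.19 (adjusted p = 2.35e-05) under time-restricted feeding, and −1.14 and −1.21 with library size scaling.

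Aldoa (ENSMUSG00000030695, chromosome 7, 126795234 to 126800751) encodes aldolase A. It measured 477, 635, 658 and 544 CPM in FAN time-restricted and 484, 454, 423 and 378 CPM in FAN ad libitum libraries. It measured 1014, 1187, 1038 and 788 CPM in vehicle time-restricted and 868, 1028, 1055 and 1121 CPM in vehicle ad libitum libraries. FAN and vehicle libraries did not overlap, with log2 changes of −1.23 and −0.80 (adjusted p = 1.56e-06 and 0.000348, edgeR) under ad libitum and time-restricted feeding. A further row with the symbol Aldoa held at most 13 counts per library and was not used.

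Pgk1 (ENSMUSG00000062070, chromosome X, 106187100 to 106203699) encodes phosphoglycerate kinase, the first ATP-yielding step. It measured 220.1, 215, 222 and 269 CPM in FAN time-restricted and 147, 122, 166 and 118 CPM in FAN ad libitum libraries. It measured 295, 231, 281 and 304.2 CPM in vehicle time-restricted and 236, 257, 263 and 252 CPM in vehicle ad libitum libraries. FAN ad libitum lay below all other groups, and FAN time-restricted overlapped with vehicle. Its log2 change was −0.87 (adjusted p = 1.63e-05, edgeR) under ad libitum and −0.26 (adjusted p = 0.111) under time-restricted feeding. With library size scaling the ad libitum change was −0.18 (adjusted p = 0.167), and the time-restricted change passed with DESeq2 (0.0467) and with voom weights (0.00634).

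The other trunk enzymes fell in both contrasts. These were the isomerase gene Gpi1 (−0.90 and −0.76 under ad libitum and time-restricted feeding), Pfkm, the muscle-type phosphofructokinase gene (−0.90 and −0.81), Aldoc (−1.38 and −1.12), the mutase gene Pgam1 (−0.59 and −0.60) and Eno1 (−1.17 and −0.99). With the library size as scale, the ad libitum changes of Gpi1, Pfkm and Eno1 did not pass (−0.19, −0.19 and −0.46), and Pgam1 measured 0.12. The Pgam1 call was also lost in the earliest S numbers alone (−0.16), without FAN ad libitum 10 (adjusted p = 0.051, edgeR), with voom weights (0.0602) and with the covariate of 3 runs (0.127). That of Aldoc was lost in the earliest S numbers alone (adjusted p = 0.0513). The time-restricted call of Pgam1 was lost without FAN time-restricted 6 or vehicle time-restricted 2 (adjusted p = 0.0634 and 0.0618) and with library size scaling (0.0573). With the 3 runs of S numbers as a covariate, the time-restricted calls of Gpi1, Pfkm, Aldoc, Pgam1 and Eno1 did not pass (adjusted p = 0.0535, 0.0557, 0.142, 0.533 and 0.0957).

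A few isozymes rose after FAN, at a share of the glycolytic members near that of all genes. Of 17 such members, 5 rose under ad libitum and 4 under time-restricted feeding, where 32.1% and 24.5% of all genes rose. Hk2 encodes the inducible hexokinase of mitochondria-bound type. It ranged over 4.27 to 9.82 CPM in FAN time-restricted, 15.5 to 26.0 in FAN ad libitum, 0.296 to 3.79 in vehicle time-restricted and 0.701 to 3.55 in vehicle ad libitum libraries. FAN and vehicle did not overlap under either regimen. On the log2 scale its change was 3.72 ± 0.59 (adjusted p = 5.39e-05, edgeR) under ad libitum and 2.22 ± 0.58 (adjusted p = 0.00583) under time-restricted feeding. The sum of 4 fibroblast markers was 348 to 733, 681 to 1399, 50.3 to 80.7 and 55.6 to 110.1 CPM in FAN time-restricted, FAN ad libitum, vehicle time-restricted and vehicle ad libitum libraries. The sum of 4 T cell markers was 13.6 to 20.9, 13.1 to 22.5, 2.11 to 3.261 and 1.82 to 4.91 CPM in the same order. No marker of either list was at 0 in a whole group, all 4 of each rose after FAN under both regimens, and the part of fibroblasts, T cells and macrophages in the levels of Hk2, Eno2 and Slc16a3 was not tested.

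Hk3 (ENSMUSG00000025877, chromosome 13, 55005985 to 55021385) encodes the hexokinase of white blood cells. It measured 2.65, 3.41, 2.95 and 1.77 CPM in FAN time-restricted and 5.36, 5.74, 4.38 and 4.87 CPM in FAN ad libitum libraries. It measured 0.593, 0.461, 0.315 and 0.652 CPM in vehicle time-restricted and 0.840, 0.841, 0.192 and 0.568 CPM in vehicle ad libitum libraries. The levels ordered FAN ad libitum above FAN time-restricted above vehicle, as the macrophage markers did. The sum of 4 neutrophil markers was 5.67 to 17.4, 16.8 to 27.2, 0.762 to 2.09 and 1.55 to 3.97 CPM in FAN time-restricted, FAN ad libitum, vehicle time-restricted and vehicle ad libitum libraries. The part of these cells in the level of Hk3 was not tested. The log2 change was 3.01 (adjusted p = 3.03e-07, edgeR) under ad libitum and 2.46 (adjusted p = 1.85e-05) under time-restricted feeding. The opposite-strand gene Unc5a overlaps with Hk3 and had counts equal to 65.2% of those of Hk3, which leaves Hk3 uncertain in the same way.

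Eno2 (ENSMUSG00000004267, chromosome 6, 124760053 to 124769673) encodes the enolase known from neurons. It measured 4.55, 4.99, 7.47 and 3.35 CPM in FAN time-restricted and 8.80, 8.37, 7.06 and 11.97 CPM in FAN ad libitum libraries. It measured 1.57, 1.74, 2.43 and 0.733 CPM in vehicle time-restricted and 1.28, 2.17, 0.959 and 2.02 CPM in vehicle ad libitum libraries. Each FAN library was above each vehicle library, with a log2 change of 2.495 (adjusted p = 2.62e-06, edgeR) under ad libitum and 1.63 (adjusted p = 0.00054) under time-restricted feeding.

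Pklr (ENSMUSG00000041237, chromosome 3, 89136142 to 89146784) encodes the pyruvate kinase of liver and red cells. It measured 18.3, 28.5, 16.8 and 25.4 CPM in FAN time-restricted and 54.5, 46.6, 19.7 and 23.0 CPM in FAN ad libitum libraries. It measured 8.85, 8.79, 8.82 and 12.8 CPM in vehicle time-restricted and 10.6, 8.31, 8.05 and 7.25 CPM in vehicle ad libitum libraries. FAN libraries were above vehicle under both regimens, and FAN ad libitum 6 and 7 were above 10 and 12. Its log2 change was 2.07 (adjusted p = 6.9e-06, edgeR) under ad libitum and 1.19 (adjusted p = 0.00263) under time-restricted feeding. The sum of 3 erythrocyte markers was 1.12 to 4.87, 0.492 to 1.38, 15.6 to 41.6 and 1.33 to 31.0 CPM in FAN time-restricted, FAN ad libitum, vehicle time-restricted and vehicle ad libitum libraries.

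Pfkp, the platelet-type phosphofructokinase gene, rose by 0.68 (adjusted p = 0.000119, edgeR) under ad libitum feeding and measured 0.20 (adjusted p = 0.213, and 0.0418 with voom weights) under time-restricted feeding. Pfkl, the liver-type gene, measured −0.21 (adjusted p = 0.374) and −0.78 (adjusted p = 0.00451). When leaving out FAN ad libitum 7 the ad libitum change of Pfkl was −0.47 (adjusted p = 0.0231), without both FAN ad libitum 6 and 7 it was −0.76 (0.00055), and with library size scaling it was 0.50 (0.0493, edgeR). With 3 runs of S numbers as a covariate the time-restricted change of Pfkl was −0.40 (adjusted p = 0.275, edgeR). Hk1, the housekeeping hexokinase gene, measured 29.4 to 58.0 CPM in FAN time-restricted, 42.5 to 121 in FAN ad libitum, 30.1 to 57.7 in vehicle time-restricted and 45.5 to 59.8 in vehicle ad libitum libraries. Its high FAN ad libitum values were in libraries 6 and 7, and its change of 0.65 under ad libitum feeding did not pass (adjusted p = 0.064). It passed without FAN ad libitum 10 or 12 (adjusted p = 0.0374 and 0.00905) and in the earliest S numbers alone (0.0256). It also passed with library size scaling, at 1.37 (adjusted p = 0.000698, edgeR), with voom weights (0.00185) and with 3 runs of S numbers as a covariate (0.0245). Under time-restricted feeding it measured 0.00. Pkm, the pyruvate kinase gene of most tissues, measured 0.23 and 0.03 under ad libitum and time-restricted feeding and did not pass. Its ad libitum change passed with library size scaling, at 0.93 (adjusted p = 0.000128, edgeR), and with voom weights (0.0366). Opposite-strand genes overlap with Pfkm (Senp1, with counts equal to 61.2% of those of Pfkm) and Pfkp (Pitrm1, 41.0%).

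**Figure D3:**
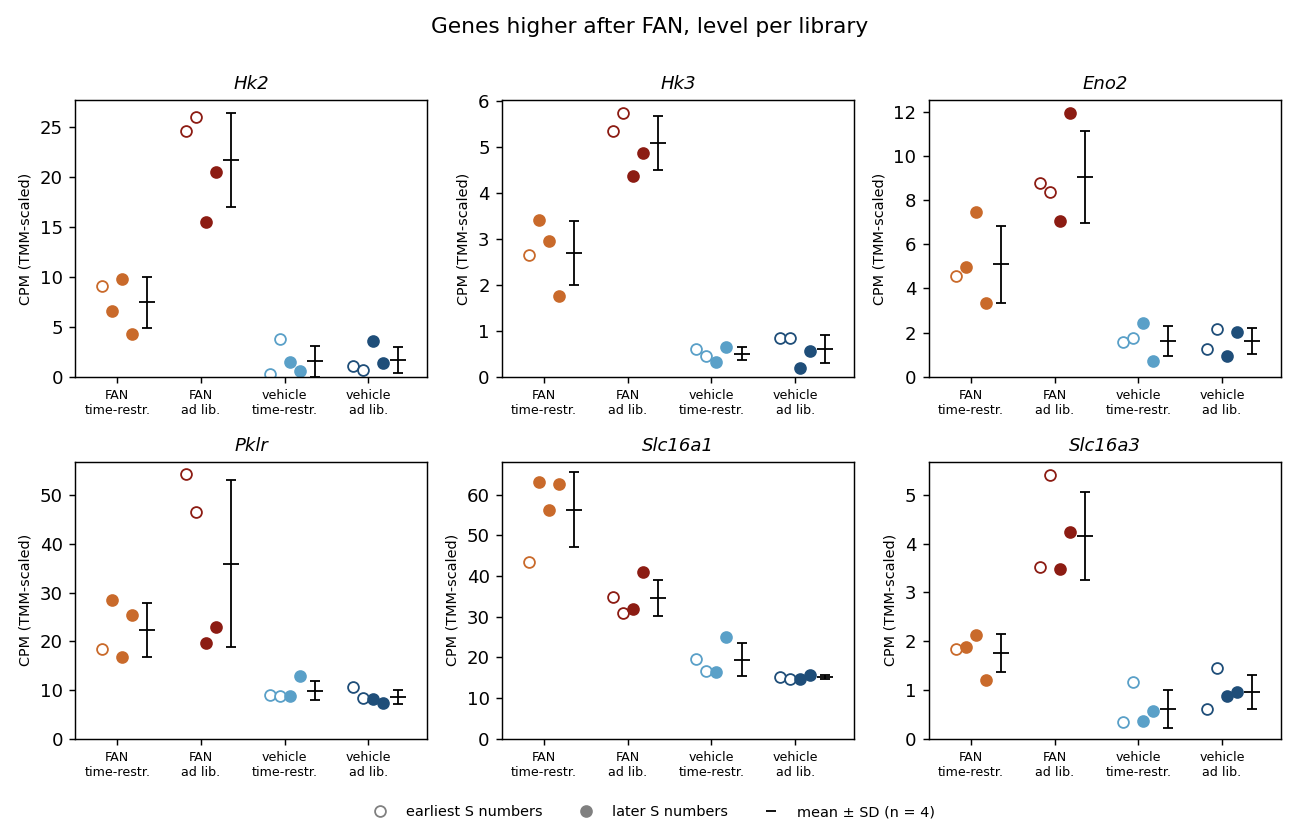
TMM-scaled CPM (y axis) of 6 members that rose after FAN, in each library by group, with mean ± SD of 4 libraries and the earliest S numbers as open points. FAN libraries lie above vehicle libraries under both regimens in the panels of Hk2, Hk3, Eno2, Pklr, Slc16a1 and Slc16a3.

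The monocarboxylate carrier genes Slc16a1 and Slc16a3 rose and the pyruvate dehydrogenase subunits fell. Slc16a1 (ENSMUSG00000032902, chromosome 3, 104638668 to 104658462) encodes MCT1, which moves lactate, pyruvate and ketone bodies with a proton. It measured 43.4, 63.1, 56.3 and 62.5 CPM in FAN time-restricted and 34.9, 30.9, 31.8 and 40.9 CPM in FAN ad libitum libraries. It measured 19.6, 16.5, 16.3 and 25.1 CPM in vehicle time-restricted and 15.1, 14.6, 14.8 and 15.7 CPM in vehicle ad libitum libraries. FAN time-restricted libraries were the highest, above every FAN ad libitum library. The log2 change after FAN was 1.20 (adjusted p = 1.61e-06, edgeR) under ad libitum and 1.54 (adjusted p = 3.32e-07) under time-restricted feeding.

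Slc16a3 (ENSMUSG00000025161, chromosome 11, 120948480 to 120960868) encodes MCT4, the lactate exporter of glycolytic cells. It measured 1.83, 1.88, 2.12 and 1.21 CPM in FAN time-restricted and 3.52, 5.41, 3.47 and 4.23 CPM in FAN ad libitum libraries. It measured 0.339, 1.17, 0.360 and 0.570 CPM in vehicle time-restricted and 0.605, 1.44, 0.863 and 0.946 CPM in vehicle ad libitum libraries. In contrast to Slc16a1, FAN ad libitum libraries were the highest. On the log2 scale its change was 2.10 (adjusted p = 3.58e-05, edgeR) under ad libitum and 1.51 (adjusted p = 0.00302) under time-restricted feeding. Slc16a7, which encodes MCT2, measured −0.08 and 0.49 and did not pass. The sum of macrophage markers ran in the same order of groups as Slc16a3, and its part was not tested.

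Pdhb (ENSMUSG00000021748, chromosome 14, 8165996 to 8173025) encodes the beta subunit of the pyruvate dehydrogenase E1 enzyme, the gate to the citric acid cycle. It measured 164, 136, 139 and 146 CPM in FAN time-restricted and 76.2, 73.4, 105 and 89.3 CPM in FAN ad libitum libraries. It measured 198.58, 187, 202 and 223 CPM in vehicle time-restricted and 174, 183, 196 and 197.7 CPM in vehicle ad libitum libraries. The 3 levels were ordered as for Khk and did not overlap. The log2 change was −1.12 (adjusted p = 3.13e-07, edgeR) under ad libitum and −0.47 (adjusted p = 0.0043) under time-restricted feeding.

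Pdha1 (ENSMUSG00000031299, chromosome X, 160122209 to 160138413) encodes the alpha subunit of the same enzyme. It measured 308, 272, 238 and 369 CPM in FAN time-restricted and 198.95, 195, 200.6 and 138 CPM in FAN ad libitum libraries. It measured 325, 279, 312 and 378 CPM in vehicle time-restricted and 311, 279, 295 and 301.4 CPM in vehicle ad libitum libraries. FAN time-restricted libraries overlapped with vehicle. Its log2 change was −0.70 (adjusted p = 0.000611, edgeR) under ad libitum and −0.12 (adjusted p = 0.53) under time-restricted feeding. Scaled by library size, the ad libitum change was 0.00. Pdk2, a kinase that switches the complex off, fell under both regimens (−1.35 under ad libitum and −1.01 under time-restricted feeding). Its FAN ad libitum range of 24.1 to 93.7 CPM was wide, with libraries 6 and 7 high. With library size scaling the ad libitum change of Pdk2 was −0.63 (adjusted p = 0.0974, edgeR), and with the 3 runs of S numbers as a covariate the time-restricted change was −0.37 (adjusted p = 0.503). The time-restricted call of Pdk2 was also lost with no filter (0.0758). Pdk1 measured 0.12 and 0.07 under ad libitum and time-restricted feeding and did not pass, whereas with library size scaling its ad libitum change of 0.81 did (adjusted p = 4.46e-05, edgeR).

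Ldha (ENSMUSG00000063229, chromosome 7, 46841475 to 46855627) encodes the lactate dehydrogenase subunit of glycolytic tissue. It measured 505, 579, 665 and 722 CPM in FAN time-restricted and 412, 381, 466 and 459.7 CPM in FAN ad libitum libraries. It measured 751, 781, 747 and 766 CPM in vehicle time-restricted and 660.3, 804, 775 and 719 CPM in vehicle ad libitum libraries. FAN ad libitum lay below the other groups. On the log2 scale its change was −0.78 (adjusted p = 4.41e-05, edgeR) under ad libitum feeding and −0.30 (adjusted p = 0.0672) under time-restricted feeding. Under library size scaling the ad libitum change was −0.09 (adjusted p = 0.52). The time-restricted change of Ldha passed without FAN time-restricted 11 or 12 (adjusted p = 0.0325 and 0.0307), and with DESeq2 size factors, DESeq2, voom weights, the early run or 3 runs as a covariate (adjusted p from 0.00378 to 0.0386). Ldhb, the subunit of oxidative tissue, measured −0.28 (adjusted p = 0.0903) and −0.19 (adjusted p = 0.288), and 0.42 under ad libitum feeding with library size scaling, where it passed as higher (adjusted p = 0.00864, edgeR). Without FAN ad libitum 6, and without 6 and 7, the ad libitum change of Ldhb passed as lower (adjusted p = 0.0444 and 0.0489).

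Time-restricted feeding in FAN mice raised 5 gluconeogenic genes with either scaling. Of the 37 members, 15 rose, 8 fell and 14 did not pass, where 31.8% of all genes passed, 17.9% as higher and 13.9% as lower. Scaled by library size, 6 rose and 18 fell, and the median of all genes was −0.67 in place of −0.02. When leaving out FAN ad libitum 7 the total called was 15, with 2 falls. Of the 8 gluconeogenic members 6 rose and 2 did not pass, with a median of 1.41. Scaled by library size, 5 of the 8 rose, Pck2 (−0.41, adjusted p = 0.00993, edgeR) and Got1 (−0.47, adjusted p = 0.0097) fell, and Fbp2 did not pass. Fbp1 rose by 1.79 ± 0.23 (adjusted p = 1.65e-05, edgeR), Slc37a4 by 1.65 ± 0.15 (adjusted p = 5.4e-07), G6pc by 1.80 ± 0.38 (adjusted p = 0.00218), Pcx by 1.57 ± 0.29 (adjusted p = 0.00064) and Mdh1 by 1.25 ± 0.16 (adjusted p = 1.18e-05). Khk rose by 1.63 ± 0.13 (adjusted p = 1.98e-07). These 6 genes also rose with library size scaling, by 1.13, 1.004, 1.15, 0.90, 0.62 and 0.99 in the same order. Without FAN ad libitum 6 and 7 the rises were 2.29, 1.92, 2.55, 2.48, 1.05 and 1.67. The proximal tubule marker sum was higher in FAN time-restricted than in FAN ad libitum libraries too, and its part in these rises was not tested.

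Other members rose less. They were Tpi1 (0.74), Pgk1 (0.74), Pdhb (0.77), Pdha1 (0.70), Slc16a1 (0.70), Gapdh (0.65), Ldha (0.52), Fbp2 (0.48) and Aldoa (0.41). With library size scaling their changes were 0.09, 0.10, 0.13, 0.04, 0.05, 0.00, −0.12, −0.15 and −0.23, and none of the 9 passed. The Aldoa call was also lost when FAN ad libitum 7, 10 or 12 or FAN time-restricted 10, 11 or 12 was left out, with adjusted p from 0.0561 to 0.127 (edgeR), and the Fbp2 call without FAN ad libitum 7 or FAN time-restricted 10 or 11 (adjusted p = 0.0626, 0.0801 and 0.113).

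The members that fell with time-restricted feeding in FAN were Hk2 (−1.53), Slc16a3 (−1.22), Hk1 (−0.91), Hk3 (−0.90), Eno2 (−0.82), Pfkl (−0.57), Pfkp (−0.46) and Pkm (−0.42). Pklr measured −0.70 (adjusted p = 0.0592, edgeR) and passed without FAN ad libitum 10 or 12 or FAN time-restricted 10 (adjusted p = 0.00995, 0.0222 and 0.0458). It also passed with library size scaling, at −1.37 (adjusted p = 0.000635, edgeR), with DESeq2 (0.0342) and with voom weights (0.0017). With the early run of S numbers as a covariate 14 members rose and 3 fell, and with 3 runs 14 rose and 3 fell. In both fits the calls of Hk1, Hk2, Eno2, Pfkl and Pkm were lost, with adjusted p from 0.0524 to 0.164 (edgeR). With FAN ad libitum 6 and 7 both left out, an alternative chosen after seeing the data, 20 members rose and 0 fell, and Hk2, Slc16a3, Hk1 and Pkm measured −1.27, −1.11, −0.17 and −0.18. In single omissions the calls of Hk1, Hk2, Hk3, Eno2, Pfkl and Pkm were lost without FAN ad libitum 6 or 7 or FAN time-restricted 6, with adjusted p from 0.0553 to 0.204. Of these, Hk1, Hk2, Eno2, Pfkl and Pkm were also lost without FAN time-restricted 10, Hk1, Pfkl and Pkm without FAN time-restricted 11, Hk2, Hk3 and Eno2 without FAN time-restricted 12, and Hk2 and Eno2 without FAN ad libitum 12. Slc16a3 and Pfkp passed in each single omission. When leaving out FAN ad libitum 10, Slc16a7 and Pdk1 passed as higher (0.79 and 0.41). The macrophage marker sum was lower in FAN time-restricted than in FAN ad libitum libraries, and all 4 fibroblast markers fell. Their part in the falls of Hk2, Hk3, Eno2 and Slc16a3 was not tested.

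The interaction tested whether the change after FAN differed between regimens. For 7 of 37 members it was positive and for 0 negative, where 9.16% of all genes passed, 7.76% as positive and 1.4% as negative. With the library size as scale, 4 passed as positive and 10 as negative. Khk (1.59 ± 0.18, adjusted p = 5.52e-05, edgeR), Slc37a4 (1.59 ± 0.21, adjusted p = 0.000133), Mdh1 (1.15 ± 0.22, adjusted p = 0.00244) and Fbp1 (1.67 ± 0.32, adjusted p = 0.00249) passed in each of the alternatives run. Their values with library size scaling were 0.996, 0.99, 0.57 and 1.07, and those over the other 23 alternatives ran over 1.52 to 1.66, 1.39 to 1.85, 0.95 to 1.33 and 1.34 to 2.17. Tpi1 (0.68, adjusted p = 0.0233), Pdhb (0.66, adjusted p = 0.0206) and Pgk1 (0.60, adjusted p = 0.0474) passed too, and did not with library size scaling (0.08, 0.07 and 0.01). Without 1 library the Tpi1 call was lost in 3 cases (FAN time-restricted 12, vehicle ad libitum 2 and vehicle time-restricted 2, adjusted p from 0.0517 to 0.0551), and the Pgk1 call in 13. Without FAN ad libitum 6 and 7 both, 11 members passed as positive, and Pdhb measured 0.48 (adjusted p = 0.0576). Pcx (1.25, adjusted p = 0.0625) and G6pc (1.63, adjusted p = 0.0665) did not pass. When leaving out FAN ad libitum 6 both passed (adjusted p = 0.0145 and 0.0129), as did Pcx without FAN ad libitum 7 or 12 (0.0457 and 0.045) and G6pc without vehicle ad libitum 3 (0.0495).

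In vehicle mice time-restricted feeding called 0 of 37 members and 0 of all 17731 genes (0%) in edgeR's test. At an unadjusted p under 0.05 there were 2 members (Slc16a1 and Pck2) and 1143 genes, and DESeq2 called 0 members and 58 genes. The log2 changes were between −0.62 for Slc16a3 and 0.36 for Slc16a1, with 0.31 for Pcx, 0.29 for Pdk1 and 0.27 for Pck2. The values of Khk, Slc37a4 and Fbp1 were 0.04, 0.06 and 0.12.

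Ratios of 2 members within a library do not depend on the scaling. They were compared for 10 pairs by two-sided exact permutation tests, with p adjusted over the 10 pairs of a contrast. The smallest p that 70 assignments of 4 against 4 libraries allow is 0.0286. Whether this p passes after adjustment depends on how many of the 10 pairs reach it in that contrast, not on the size of the difference. The log2 ratio of Pfkl to Fbp1, the forward and the reverse enzyme of the same step, was −4.26, −4.07, −3.97 and −4.21 in FAN time-restricted and −2.19, −1.41, −2.06 and −1.40 in FAN ad libitum libraries. It was −4.14, −3.10, −3.45 and −3.92 in vehicle time-restricted and −3.91, −3.39, −3.35 and −3.44 in vehicle ad libitum libraries. FAN ad libitum libraries stood above all others. The difference was 1.75 for FAN over vehicle under ad libitum feeding (exact p = 0.0286, adjusted p = 0.0318), −0.48 under time-restricted feeding (exact p = 0.114, adjusted p = 0.163) and −2.36 for time-restricted over ad libitum feeding in FAN (exact p = 0.0286, adjusted p = 0.0571).

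Pkm encodes an enzyme that forms pyruvate and Pcx one that carboxylates it. The ratio of their RNA counts, which is no measure of flux, was −0.91 ± 0.16 in FAN time-restricted, 1.24 ± 0.66 in FAN ad libitum, −1.76 ± 0.33 in vehicle time-restricted and −1.20 ± 0.23 in vehicle ad libitum libraries (log2, mean ± SD, n = 4). FAN libraries lay above vehicle libraries under both regimens, with differences of 2.44 and 0.84 under ad libitum and time-restricted feeding (adjusted exact p = 0.0318 and 0.0476). The count ratio of Hk1 to Khk, genes of 1 of the hexokinases and of ketohexokinase, showed the same order, −3.38 ± 0.48, −0.94 ± 0.70, −4.49 ± 0.49 and −4.16 ± 0.20, with differences of 3.23 and 1.12 after FAN under ad libitum and time-restricted feeding. Between feeding groups in FAN the values of both ratios did not overlap (−2.15 and −2.44, exact p = 0.0286 each). Neither passed after adjustment (adjusted exact p = 0.0571). In vehicle mice the Pkm to Pcx difference of −0.56 had an exact p of 0.0286 and an adjusted p of 0.286.

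Isozyme ratios differed after FAN under both regimens. The difference was 3.38 and 2.79 for Hk2 to Hk1, 3.77 and 2.69 for Eno2 to Eno1, 1.64 and 1.01 for Pfkp to Pfkm, and −1.73 and −1.12 for Pkm to Pklr under ad libitum and time-restricted feeding (adjusted exact p = 0.0318 under ad libitum and 0.0476 under time-restricted feeding for each of the 4). Ldha to Ldhb fell under ad libitum feeding (−0.50, adjusted exact p = 0.0318) and measured −0.12 (adjusted exact p = 0.476) under time-restricted feeding. Slc16a3 to Slc16a1 rose by 0.93 under ad libitum feeding (adjusted exact p = 0.0318) and measured 0.10 under time-restricted feeding (0.886). Between feeding groups in FAN its difference was −1.92 (exact p = 0.0286, adjusted p = 0.0571). Aldoc to Aldoa did not pass under either regimen (−0.23 and −0.28).

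**Figure D4:**
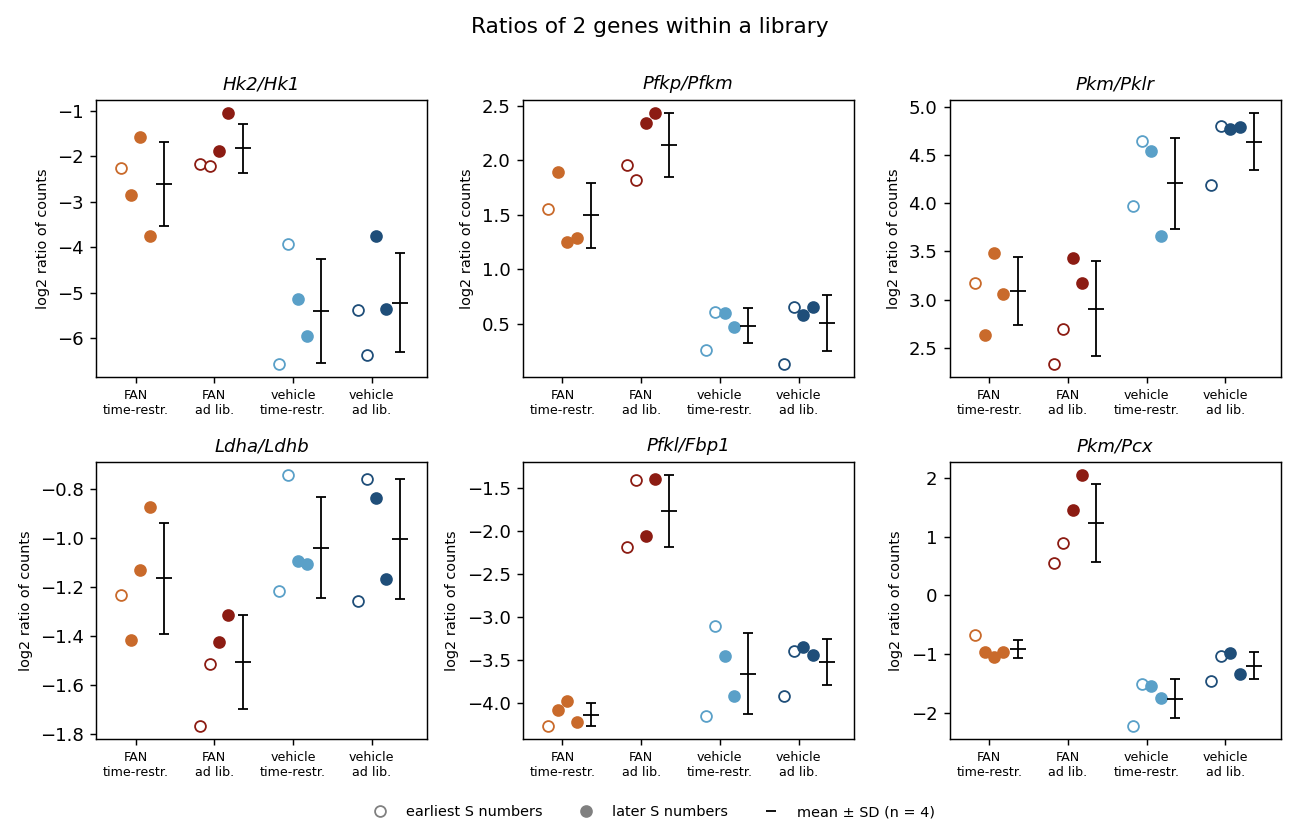
Log2 ratio of the counts of 2 members (y axis) in each library by group, with mean ± SD of 4 libraries and the earliest S numbers as open points. FAN ad libitum libraries lie above every other library for Pfkl to Fbp1 and Pkm to Pcx, and under each regimen FAN libraries lie above vehicle for Pfkp to Pfkm and Hk2 to Hk1 and below vehicle for Pkm to Pklr.

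Per kilobase of annotated exon, Ldhb was the most abundant member in each group, at 879 ± 100.1 CPM per kb in FAN time-restricted, 779 ± 87.8 in FAN ad libitum, 1003 ± 119.9 in vehicle time-restricted and 947 ± 83.6 in vehicle ad libitum libraries (SD, n = 4). In vehicle ad libitum libraries Gapdh (584 ± 54.9), Mdh1 (566 ± 35.8) and Khk (524 ± 6.95) followed, with Gapdh and Mdh1 within 1 SD of each other. In FAN ad libitum libraries Mdh1 (178 ± 43.4), Gapdh (161 ± 51.6) and Aldoa (149 ± 15.6) followed, within 1 SD of each other, and Khk was the eighth at 81.3 ± 11.3. In FAN time-restricted libraries Khk was the fifth at 251 ± 30.2, within 1 SD of Gapdh and behind Ldhb, Mdh1 and Fbp1. Hk3, Hk2, Eno2 and Slc16a3, which rose after FAN, were among the least abundant, at 0.731 ± 0.188, 1.25 ± 0.423, 1.08 ± 0.368 and 0.331 ± 0.0732 CPM per kb in FAN time-restricted, and 1.38 ± 0.161, 3.63 ± 0.787, 1.92 ± 0.442 and 0.782 ± 0.171 CPM per kb in FAN ad libitum libraries. They were at 0.137 ± 0.0407, 0.255 ± 0.266, 0.344 ± 0.148 and 0.115 ± 0.0729 CPM per kb in vehicle time-restricted and 0.166 ± 0.0834, 0.281 ± 0.214, 0.342 ± 0.124 and 0.181 ± 0.0654 CPM per kb in vehicle ad libitum libraries. The order depends on the length, which joins all annotated exons of a gene (4133 bases for Gapdh, 1570 for Ldhb). In mean CPM, Gapdh was above Ldhb in vehicle time-restricted (2608 against 1575) and vehicle ad libitum libraries (2413 against 1486). It was below Ldhb in FAN time-restricted (1049 against 1380) and FAN ad libitum libraries (667 against 1222).

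Over both regimens together, 22 members fell, 9 rose and 6 did not pass, where 65.4% of all genes passed, 30.6% as lower and 34.8% as higher. When library size was the scale, 15 fell and 14 rose.

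Neighbouring pathways were followed in 62 further genes. Under ad libitum feeding 35 fell, 9 rose and 18 did not pass, under time-restricted feeding 25 fell, 7 rose and 30 did not pass, and with time-restricted feeding in FAN 26 rose, 4 fell and 32 did not pass. Over all genes 60.7%, 43.5% and 31.8% passed in these contrasts, 28.6%, 19% and 13.9% as lower and 32.1%, 24.5% and 17.9% as higher. The pentose phosphate, glycogen, regulator and hypoxia lists had 5 of 8, 6 of 10, 5 of 11 and 6 of 9 genes called after FAN under ad libitum feeding, near or under the share of all genes, which is no result about these lists. Under library size scaling, added after seeing the data, 25 rose and 19 fell after FAN under ad libitum feeding, and 8 rose and 25 fell with time-restricted feeding in FAN. Without FAN ad libitum 6 and 7 these counts were 4 and 40, and 30 and 0. Of 9 genes that carry or convert pyruvate on the way to acetyl-CoA or regulate this route, 7 fell and 2 rose after FAN under ad libitum feeding. With time-restricted feeding in FAN 8 rose. The list includes Pdk3 and Pdk4, genes of kinases that switch pyruvate dehydrogenase off, so that these counts do not give a direction of the route. The mitochondrial pyruvate carrier genes Mpc1 and Mpc2 and the phosphatase gene Pdp2, which reactivates pyruvate dehydrogenase, had log2 changes of −1.44, −1.54 and −1.48 under ad libitum feeding. They rose by 1.41, 1.21 and 0.93 with time-restricted feeding in FAN, and by 0.77, 0.58 and 0.29 under library size scaling, where Pdp2 did not pass. Pdk4, the pyruvate dehydrogenase kinase of fasting, behaved otherwise. It was at 333 ± 124 CPM in FAN time-restricted, 76.7 ± 31.8 in FAN ad libitum, 92.2 ± 37.3 in vehicle time-restricted and 23.8 ± 5.67 in vehicle ad libitum libraries (SD, n = 4). It rose with FAN under both regimens (1.69 under ad libitum and 1.85 under time-restricted feeding) and with time-restricted feeding in FAN (2.12). The mean of Pdk4 was higher with time-restricted feeding in vehicle too (92.2 against 23.8 CPM), where 0 of the 62 genes passed. Without FAN ad libitum 6 and 7 its ad libitum change was 1.10 (adjusted p = 0.0525, edgeR). Pdp1 rose with FAN by 0.90 and 1.13 under ad libitum and time-restricted feeding.

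Among 7 other hexokinase, fructose and polyol genes, 5 fell and 1 rose under ad libitum feeding. The fructose-forming sorbitol dehydrogenase gene Sord, the glycerate kinase gene Glyctk and the triokinase gene Tkfc, which follow sugars through the same route as Khk, fell, with log2 changes of −2.15, −2.41 and −1.32. With time-restricted feeding in FAN, Sord and Glyctk rose by 1.69 and 1.05, and Tkfc measured 0.47 (adjusted p = 0.152, edgeR). The interaction of Sord and Glyctk was 1.62 and 1.25 (adjusted p = 0.000478 and 0.00115). With the library size as scale, the interaction of Sord and Glyctk was 1.02 and 0.64 (adjusted p = 0.00416 and 0.0232). Hkdc1, a further hexokinase gene, rose by 0.97 under ad libitum feeding, and measured 0.78 without FAN ad libitum 6 and 7 (adjusted p = 0.0676).

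Of 8 shuttle genes 7 fell under ad libitum feeding, with the malate carrier gene Slc25a11 (−1.36), Mdh2 (−1.47) and the aspartate-glutamate carrier gene Slc25a13 (−1.51), and 6 rose with time-restricted feeding in FAN. Under library size scaling the feeding changes of Slc25a11 and Mdh2 in FAN were 0.00 and −0.01. Of 8 pentose phosphate genes 4 fell and 1 rose, with Taldo1 (−1.20), Pgls (−0.89) and Rpia (−0.74) lower and H6pd (0.56) higher. Of 10 glycogen and bisphosphoglycerate genes 4 fell and 2 rose, with Pgm1 (−1.69), Ugp2 (−1.004) and Bpgm (−0.45) lower and Pgm2 (1.20) and Pygb (0.82) higher. With the library size as scale, the ad libitum changes of Pgls (−0.19) and Rpia (−0.04) did not pass, and that of Bpgm turned to 0.25. Without FAN ad libitum 6 and 7, H6pd measured 0.06 (adjusted p = 0.75, edgeR).

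Of 11 regulators 3 fell and 2 rose under ad libitum feeding. Hnf4a, a nuclear receptor that drives proximal tubule and gluconeogenic genes, was at 373 ± 42.1 CPM in FAN time-restricted, 177 ± 42.3 in FAN ad libitum, 660.2 ± 44.3 in vehicle time-restricted and 696 ± 57.4 in vehicle ad libitum libraries (SD, n = 4). Its change was −1.98 and −0.82 after FAN under ad libitum and time-restricted feeding and 1.07 with time-restricted feeding in FAN. The interaction was 1.15 (adjusted p = 0.00247, edgeR), and 0.55 (adjusted p = 0.0505) under library size scaling. Mlxipl, the carbohydrate-sensing factor ChREBP, and Foxo1 fell, with log2 changes of −1.36 and −0.58, under ad libitum feeding, and Mlxip and Myc rose by 0.81 and 1.39. Foxo1 turned to 0.13 under library size scaling, and Myc measured 1.25 (adjusted p = 0.0532, edgeR) without FAN ad libitum 6 and 7.

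Of 9 hypoxia-inducible genes outside glycolysis, 5 fell and 1 rose after FAN under ad libitum feeding. Bnip3, Vegfa and Egln1 fell, with log2 changes of −1.35, −0.87 and −0.70, and Ndrg1 rose by 0.82. Vegfa and Egln1 measured −0.16 and 0.01 under library size scaling, where neither passed, and Ndrg1 measured 0.62 (adjusted p = 0.187, edgeR) without FAN ad libitum 6 and 7. With time-restricted feeding in FAN 2 rose, Bnip3 by 1.51 and Adm, named after its value was seen, by 0.91. Under library size scaling Bnip3 rose by 0.87 and Adm measured 0.26 (adjusted p = 0.368).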

How the data were processed

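RNA of 16 kidney samples was extracted with TRIzol and made into stranded poly(A) libraries, per the labels' protocols. The deposited values were raw read counts per gene. FastQC 0.11.5, STAR 2.5.3a, edgeR 3.26.7 and mm10 are named in the submitters' processing notes without their roles, and the counting tool and strand setting are not given in the sources used here. Column names put each library in a group, and FAN columns could not be matched to single titles. The labels name no animals, so p-values measure the spread between these samples, which may be technical. No pair of libraries within a group was a repeat deposit (lowest chi-square, per gene, 18.4).

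Counts were fitted in R 4.3.3 with edgeR 4.0.16 as 1 model of 4 groups (filterByExpr with a minimum count of 10, TMM, robust quasi-likelihood), with Benjamini-Hochberg adjustment over 17731 genes and a threshold of 0.05. SE are from this model. On simulated counts for FAN against vehicle under ad libitum feeding (17309 genes fitted), the fit recovered 85% of 100 genes changed by 1 log2 unit and 100% of 100 changed by 2. It also called 11 unchanged genes. The changed genes had mean counts over 100 and went up and down in equal number, and all genes had the same dispersion. The bulk of genes was unchanged, so the simulation tests neither the scaling nor members with low counts. Ratios used counts plus 0.5 and exact permutation tests. Coordinates and exon lengths are from GENCODE M21 (GRCm38), promoters from RefSeq (GRCm38.p6, 36 of 37 members matched). Alternatives were library size scaling, DESeq2 1.42.0 and its size factors, no filter, limma 3.58.1 voom weights, each library left out, FAN ad libitum 6 and 7 left out together (added after seeing the data), and S number runs (the S numbers of the column names fall into 3 runs, here called early, middle and late; what they stand for is not stated). Values in every library are given for the members with the smallest p per role and direction, by a rule. The members and lists were chosen with earlier results of these data known.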

Additional observations from a re-analysis of the deposited data

Results flagged for a closer look

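Of 148 sets of 4 libraries (37 members in 4 groups), 9 held a highest or lowest library whose gap to its nearest neighbour took up most of the range. Chance alone flags about 1 in 20 such sets. FAN time-restricted 12, the library with the lowest total count, was the highest of its group for Pfkl at 34.2 CPM and for Pgk1 at 269.3 CPM. FAN time-restricted 11 was the lowest for Got1 at 51.75 CPM. FAN ad libitum 10 was the highest for Slc16a7 at 112.4 CPM, and FAN ad libitum 12 the lowest for Pdha1 at 138.5 CPM. Vehicle time-restricted 4 was the highest for Pklr at 12.79 CPM. Among vehicle ad libitum libraries, number 3 was the lowest for Pfkm at 42.76 CPM, number 2 the highest for Tpi1 at 916.4 CPM and number 1 the highest for Pdk1 at 41.17 CPM.

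The change after FAN differed between the feeding regimens, by the interaction in edgeR's quasi-likelihood test, for 7 members. The difference, time-restricted minus ad libitum feeding, was 1.59 for Khk, 1.59 for Slc37a4, 1.15 for Mdh1, 1.67 for Fbp1, 0.66 for Pdhb, 0.68 for Tpi1 and 0.60 for Pgk1 on the log2 scale.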

How the results depend on the processing

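Scaling was the choice that mattered most. With library size scaling, 19 log2 changes that passed with one of the scalings took the other sign, and 14 members (4 up, 10 down) passed for the interaction. TMM factors were 1.32 to 1.53 in FAN ad libitum libraries and 0.816 to 0.975 in the others. The changes that turned under ad libitum feeding were those of Pfkl (0.50), Pgam1 (0.12), Ldhb (0.42), Pdha1 (0.0019) and Fbp2 (0.42). For time-restricted over ad libitum feeding in FAN they were those of Gpi1 (−0.47), Pfkm (−0.51), Aldoa (−0.23), Gapdh (−0.0005), Pgam1 (−0.64), Ldha (−0.12), Ldhb (−0.46), Pdk1 (−0.40), Pck2 (−0.41), Fbp2 (−0.15) and Got1 (−0.47). Ldhb turned for the interaction (−0.50), and Ldhb (0.17) and Fbp2 (0.28) over both regimens. No other alternative turned the sign of a change that passed in either of the 2 fits compared. Voom with sample weights passed 16 members for the interaction (11 up, 5 down), and leaving out FAN ad libitum 6 and 7 passed 11 (11 up, 0 down). The 3 runs of S numbers as a covariate left 13 calls (6 up, 7 down) for FAN under time-restricted feeding, and the 10 calls lost were those of Gpi1, Pfkl, Pfkm, Aldoc, Pgam1, Eno1, Pdk2, Pcx, Slc37a4 and Got1, while Ldha passed. FAN and vehicle libraries share only the early run, which holds FAN time-restricted 6 alone of its group. With 3 runs as a covariate, FAN and vehicle are linked only through that run. The covariate of the early run sets the vehicle-only middle and FAN-only late runs together. The cause was not tested in any of the cases above. With 1 library left out, calls ran from 27 to 29 for FAN under ad libitum feeding, 20 to 23 under time-restricted feeding, 27 to 31 over both, 15 to 25 for feeding in FAN and 5 to 9 for the interaction. In the earliest S numbers alone the ratio differences were 3.83 for Hk1 to Khk and 3.06 for Eno2 to Eno1 after FAN, and −0.59 for Aldoc to Aldoa between feeding groups in vehicle. All 40 ratio values with a pseudocount of 5 moved by less than 1 SD. The 320 ratio values with 1 library left out did too, but by construction. In groups of 4, leaving out 1 library cannot move a mean by 1 SD, so those 320 values do not test the ratios.

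With the vehicle numbers as a replicate block, 0 members passed for feeding in vehicle, as without the block. Correlations were taken between libraries on the deviations of log CPM from the group mean, not on the levels, so they lie around 0 by construction. Same-numbered vehicle libraries gave 0.18, 0.12, −0.15 and −0.01 for numbers 1 to 4, and differently numbered ones −0.28 to 0.325. Same-numbered vehicle libraries share a number and a run of S numbers (numbers 1 and 2 early, 3 and 4 middle). The numbers 6, 10 and 12 of the FAN columns occur under both regimens. Same-numbered libraries of these share a run of S numbers too. Their deviations correlated at −0.13, −0.05 and −0.25, and those of differently numbered FAN libraries at −0.16 to 0.26. With these 6 libraries alone, a fit added after seeing the data, 9 members (6 up, 3 down) passed for feeding in FAN with the numbers as a replicate block and 14 (11 up, 3 down) without the block.

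Low counts limit Hk2, Hk3, Eno2 and Slc16a3. The S numbers and the groups overlap only in part. The middle run holds only vehicle and the late run only FAN libraries, so outside the early run FAN and run cannot be told apart. Within FAN ad libitum the earliest run holds 2 libraries, and within FAN time-restricted it holds library 6 alone.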
